A study of Mus musculus with 18 samples.

Results

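Dendritic cells with a conditional deletion of Bat3 that were given lipopolysaccharide (LPS) were compared with wild-type dendritic cells that received LPS together with 2 suppressive cytokines. The members are the 3 libraries titled as Bat3 conditional knockout with LPS and the 3 wild-type libraries titled TolLPS, 6 of the 18 libraries in the series, read over all 23420 genes listed in the files. C57BL/6 bone marrow gave all the dendritic cells, which were grown with 20 ng/ml GM-CSF, treated for 8 hours and sorted as live cells with high CD11c. The knockout group, called cKO LPS here, carried Bat3 fl/fl alleles and CD11c Cre, a recombinase driven by the promoter of the dendritic cell integrin CD11c, and received LPS alone. The second group, WT TolLPS, carried wild-type Bat3 and received LPS, IL10 and TGF-β at the same time. The remaining group used here was wild-type cells with LPS alone (WT LPS, 3 libraries). It shares the LPS and has neither the deletion nor the cytokines, and its level is given for some genes as a reference. The deletion and the cytokines differ at once between the 2 groups compared, so their parts in a difference cannot be told apart from this contrast. Whether a group's libraries are separate animals or cultures is not in the labels, so p-values measure the spread among these samples.

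Bag6, which the labels call Bat3, is a chaperone that shields hydrophobic stretches of newly made proteins, hands tail-anchored proteins to their insertion machinery and directs misfolded ones to degradation. It also binds the tail of TIM-3, a checkpoint receptor encoded by Havcr2. LPS is sensed by TLR4 and drives dendritic cells to mature: they make IL-12 and other cytokines, present more antigen on MHC class II and switch on the chemokine receptor CCR7. IL-10 signals through STAT3 and TGF-β through SMAD proteins, and cells matured in their presence are known for low costimulation and low IL-12, a state called tolerised.

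Total expected counts ranged from 8056831 to 8767896 in cKO LPS and from 10588650 to 12068759 in WT TolLPS. Bag6, on chromosome 17 at 35135156 to 35147321 of the mouse mm10 (GRCm38) assembly, was at 11.2, 10.4 and 6.27 CPM (expected counts scaled to a common library size) in the cKO LPS libraries and at 24.2, 27.3 and 27.5 in WT TolLPS. The groups did not overlap, the log2 fold change was -1.49 ± 0.17 (SE), and the counts cover the whole gene, so they do not separate deleted from kept exons. On the first principal component of the 9 LPS libraries, which held 66.6% of the variance, cKO LPS lay at 43.6 to 44.7, WT LPS at 10.8 to 24.4 and WT TolLPS at -62.7 to -58.9. The median absolute log2 difference over genes was 0.50 to 0.54 between a cKO LPS and a WT TolLPS library, and 0.13 to 0.17 between replicates of either group. cKO LPS replicate 1 carried female-pattern sex-linked expression (Xist at 1007 CPM, 4 Y genes summing to 0.983 CPM) and the other 5 libraries the male pattern. The cKO LPS libraries therefore did not all come from the same animal, and the sex pattern varied within cKO LPS but not within WT TolLPS. Ribosomal precursor RNA (Rn45s) took 5.38% to 6.15% of counts in cKO LPS and 6.92% to 7.63% in WT TolLPS. Markers of granulocytes and their precursors summed to 4153 to 7423 CPM in cKO LPS, 13409 to 14591 CPM in WT TolLPS and 4011 to 7650 CPM in WT LPS. Of 15 such markers tested, 11 were lower, 1 higher and 3 not called in cKO LPS. The higher one was Retnlg (log2 fold change 2.53), and among the lower the granule protease Prtn3 was at 1.43 ± 0.228 against 10.5 ± 3.18 CPM. The lymphocyte genes Cd3e, Cd3g, Cd4 and Pax5 were at 0 in all 6 libraries, and 14 lymphocyte and natural killer markers summed to 0.459 to 1.39 CPM in cKO LPS and 2.00 to 3.65 CPM in WT TolLPS. Of 8 mast cell and basophil markers tested 2 were higher and 4 lower in cKO LPS (median log2 fold change -0.82, with -1.24 to 0.64 over the alternatives). Without cKO LPS replicate 1, 1 was higher and 2 lower. Their sum was 86.4 to 108 CPM in cKO LPS and 26.6 to 51.2 CPM in WT TolLPS, most of it from Hdc, which makes histamine (80.9 against 10.6 CPM), while the protease gene Cma1 had 0 counts in cKO LPS and 98 in WT TolLPS. Of 5 stromal and endothelial markers tested 1 was higher and 2 lower (median 0.12, with -0.91 to 0.62 over the alternatives). Their sum was 69.2 to 74.5 CPM in cKO LPS and 193 to 218 CPM in WT TolLPS, most of the latter from Pecam1 (32.0 against 182 CPM). The part of these markers in the results was not tested, and in these bulk samples fewer cells of a type and less RNA per cell cannot be told apart.

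The 2 groups differed widely in both directions. Of 11248 genes with enough counts to be tested, 6866 (61.0%) had an adjusted p under 0.05 in edgeR's quasi-likelihood test, 3344 (29.7%) higher and 3522 (31.3%) lower in cKO LPS. A gene called in one of these directions is termed higher or lower below, log2 fold changes are cKO LPS minus WT TolLPS with their SE, and the shares of 29.7% and 31.3% are the background for each gene group. When the difference itself was tested against 2-fold, 777 genes (6.91%) passed as higher and 713 (6.34%) as lower. Called rises of at least 8-fold numbered 185 and called falls of that size 144. The libraries of the 2 groups did not overlap in 7700 genes (68.5%). The median log2 fold change of all genes was -0.02. On the TPM scale it moved to -0.29, with 2027 genes higher and 5387 lower, 27.3% of calls being higher against 48.7% by counts. With upper-quartile scaling it was -0.11, with 2936 higher and 4051 lower. The factors that scaled the counts (TMM) were 0.80 to 0.81 in cKO LPS and 0.93 to 0.98 in WT TolLPS. TPM values were used without such factors, and the part of this scaling in the TPM shift was not tested. Against WT LPS, a reference that both groups share, 40.3% of genes were called for cKO LPS and 44.4% for WT TolLPS.

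**Figure D1:**
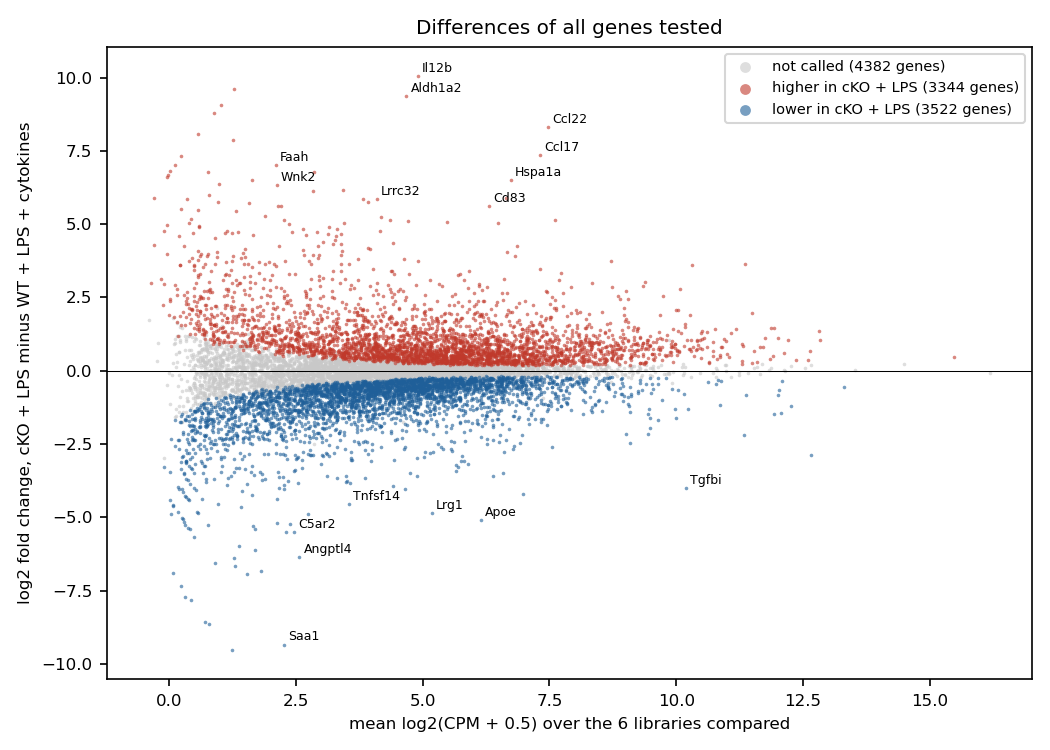
Each point is 1 of 11248 genes: the horizontal axis gives its mean log2(CPM + 0.5) over the 6 libraries and the vertical axis its fitted log2 fold change, cKO LPS minus WT TolLPS. Red points are the 3344 genes higher in cKO LPS, blue the 3522 lower and grey those not called; at the left edge, fitted values of genes with almost no counts in one group depend on the fit and are not bounds.

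The largest rises were led by genes of mature dendritic cells. The choice of the 15 largest rises and 15 largest falls required that the libraries of the groups did not overlap. The lack of overlap stated for these genes is therefore not further evidence. Il12b, the p40 subunit shared by IL-12 and IL-23, was at 745, 874 and 759 CPM in cKO LPS and at 1.33, 0.384 and 0.400 CPM in WT TolLPS. Every cKO LPS library lay far above every WT TolLPS library, and the 3 WT LPS libraries were at 418, 380.3 and 338 CPM (log2 fold change 10.07 ± 0.23, adjusted p = 1.41e-12, and 10.93 without WT TolLPS replicate 1). Aldh1a2, which makes retinoic acid, was at 615, 549.8 and 425 CPM in cKO LPS and at 0.889, 1.06 and 0.400 CPM in WT TolLPS, with a log2 fold change of 9.37 ± 0.33. It was close to 0 in all 3 WT TolLPS libraries and at 232, 386 and 301 CPM in WT LPS. Ccl22 and Ccl17, ligands of the T-cell chemokine receptor CCR4, were the next: Ccl22 was at 2960.3, 3537 and 3389 CPM in cKO LPS and at 15.4, 11.3 and 4.30 CPM in WT TolLPS. Ccl17 was at 1849, 2024 and 2175 CPM in cKO LPS and at 13.4, 14.9 and 8.69 CPM in WT TolLPS. Neither pair of groups overlapped, and the log2 fold changes were 8.30 ± 0.37 and 7.35 ± 0.18. WT LPS means were 3567 and 1843 CPM, close to cKO LPS for both.

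Further rises were of signalling, matrix-binding and surface molecules. Cd83, a surface marker of mature dendritic cells, was at 523, 617 and 517 CPM in cKO LPS and at 15.7, 9.41 and 8.59 CPM in WT TolLPS. Il15, a cytokine that sustains natural killer and memory T cells, was at 97.2, 106 and 94.9 CPM in cKO LPS and at 2.05, 1.63 and 1.80 CPM in WT TolLPS. Fscn1, the actin-bundling protein of dendrites, was at 39.3, 49.6 and 52.3 CPM in cKO LPS and at 0.622, 1.15 and 0.200 CPM in WT TolLPS. The groups were apart for all of them, with log2 fold changes of 5.61 ± 0.20, 5.75 ± 0.18 and 6.12 ± 0.28, the last 6.75 without WT TolLPS replicate 2. Ptx3, a soluble pattern recognition molecule, was at 116, 112 and 68.6 CPM in cKO LPS and at 1.87, 2.40 and 0.799 CPM in WT TolLPS, a difference of 5.85 ± 0.48. Lrrc32, which encodes GARP, a surface docking receptor of latent TGF-β, was at 109, 106 and 134 CPM in cKO LPS and at 1.87, 2.21 and 1.90 CPM in WT TolLPS, a difference of 5.86 ± 0.14. Mgl2, a C-type lectin of dendritic cells, was at 774, 876 and 656 CPM in cKO LPS and at 16.7, 12.1 and 10.1 CPM in WT TolLPS, a difference of 5.88 ± 0.33. In these last 3 genes cKO LPS also lay above the 3 WT LPS libraries, whose means were 33.9, 41.8 and 312 CPM.

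The heat shock gene Hspa1a, which encodes an inducible HSP70, was at 828, 1121 and 1070.2 CPM in cKO LPS and at 13.7, 9.90 and 9.29 CPM in WT TolLPS. cKO LPS was above both other groups, with WT LPS at 128, 239 and 219.6 CPM and a log2 fold change from WT TolLPS of 6.51 ± 0.30. Its near-identical copy Hspa1b was at 78.5 ± 17.5 against 1.07 ± 0.513 CPM (6.17 ± 0.42), and because reads can be shared between the copies the split between them is uncertain. The remaining 3 of the 15 largest rises were Faah, the hydrolase of the endocannabinoid anandamide (26.3 ± 2.21 against 0.191 ± 0.102 CPM), the kinase gene Wnk2 (23.9 ± 4.92 against 0.283 ± 0.0831 CPM) and Klk1b9, one of a family of similar kallikrein genes and therefore uncertain (53.2 ± 9.09 against 0.472 ± 0.0782 CPM), with log2 fold changes of 7.01 ± 0.39, 6.33 ± 0.46 and 6.77 ± 0.61.

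The largest falls were of an acute phase protein, lipid-handling genes and receptors. Saa1, an acute phase apolipoprotein, had 1 count in the 3 cKO LPS libraries and 1326 counts in WT TolLPS, a ratio of 842 with a counting interval from 151 to 33288. The fitted value was -9.35 ± 0.38, and -11.56 without cKO LPS replicate 2, which holds the count; fitted values of such a gene depend on the fit. Its levels were 48.3, 37.9 and 38.9 CPM in WT TolLPS and at most 0.155 CPM in any cKO LPS library, and it belongs to a family of similar genes. Angptl4, a secreted inhibitor of lipoprotein lipase, was at 0.562, 0.620 and 0.153 CPM in cKO LPS and at 36.7, 39.6 and 36.5 CPM in WT TolLPS. Apoe, the apolipoprotein that carries cholesterol out of macrophages, was at 10.5, 18.9 and 7.80 CPM in cKO LPS and at 536, 298 and 438 CPM in WT TolLPS. Neither gene overlapped, the log2 fold changes were -6.35 ± 0.28 and -5.10 ± 0.41, and WT LPS means were 0.855 and 8.73 CPM. Tgfbi, a matrix protein named for its induction by TGF-β, was at 339, 272 and 272 CPM in cKO LPS and at 4702, 4451 and 4909 CPM in WT TolLPS. It was far lower in every cKO LPS library than in any WT TolLPS library (-3.99 ± 0.17), and WT LPS was at 979, 599 and 702 CPM.

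The receptor genes among the falls included C5ar2, a receptor of complement C5a (0.607 ± 0.324 against 27.9 ± 2.82 CPM, log2 fold change -5.51 ± 0.40), and P2ry13, a purinergic receptor of ADP (0.990 ± 0.115 against 29.9 ± 6.48 CPM, -4.89 ± 0.30). WT LPS means lay between the groups, at 4.31 and 7.34 CPM. Lrg1, a secreted modulator of TGF-β signalling, was at 5.2, 9.45 and 5.2 CPM in cKO LPS and at 189, 189 and 192 CPM in WT TolLPS. Tnfsf14, the costimulatory ligand LIGHT, was at 1.12, 3.72 and 1.99 CPM in cKO LPS and at 51.9, 56.0 and 49.8 CPM in WT TolLPS. Both were uniformly high in WT TolLPS and low in cKO LPS (-4.85 ± 0.37 and -4.54 ± 0.26). The cyclic nucleotide genes Pde1c, a phosphodiesterase, and Adcy3, an adenylyl cyclase, differed by -5.22 ± 0.29 and -4.01 ± 0.37 (-6.01 and -4.61 without cKO LPS replicate 2), and the macrophage membrane gene Ms4a7 by -4.03 ± 0.28. The scaffold gene Tanc2, the small adaptor gene Sh3bgrl2 and Bpifc, of a family of lipid-binding proteins, differed by -5.21 ± 0.31, -4.04 ± 0.21 and -3.90 ± 0.35. Sirpb1a (-3.94 ± 0.19), an activating relative of SIRPα, shares sequence with Sirpb1b (-3.42 ± 0.14), so the split between them is uncertain.

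**Figure D2:**
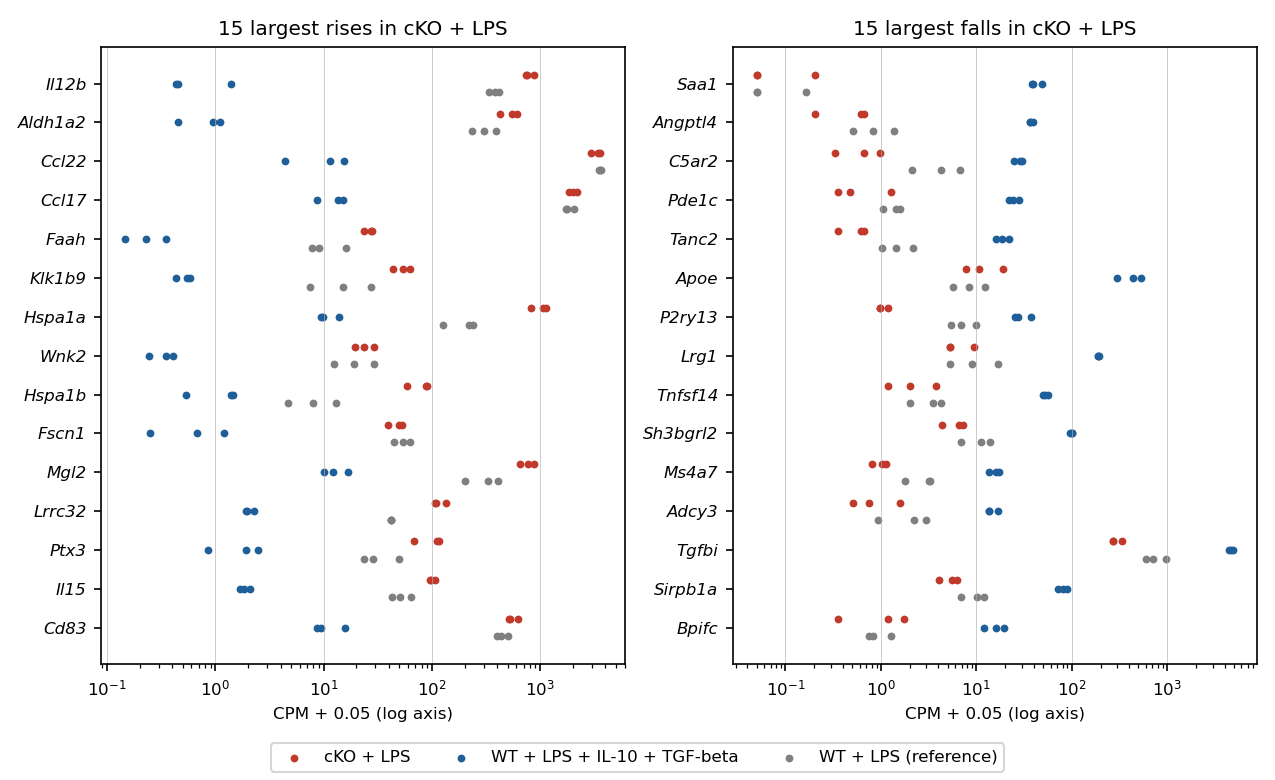
Levels of the 15 largest rises (left) and falls (right) by library, as CPM + 0.05 on a log axis, with 3 points per group for cKO LPS (red), WT TolLPS (blue) and WT LPS (grey). Red and blue points do not overlap for any of them, which the choice of genes required, and the grey points show where wild-type cells with LPS alone lay.

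Promoter sequences are shown for Il12b and Ccl17, both among the largest rises, for the heat shock gene Hspa1a and for Tgfbi, the fall named for TGF-β, so that these genes can be set beside the letters bound by STAT, SMAD and heat shock factors. The sequences are the 250 bases before the RefSeq start site in GRCm38.p6, 5′ to 3′ on the gene's strand, with motif matches in capitals.
Il12b chr11:44399813-44400062 plus strand: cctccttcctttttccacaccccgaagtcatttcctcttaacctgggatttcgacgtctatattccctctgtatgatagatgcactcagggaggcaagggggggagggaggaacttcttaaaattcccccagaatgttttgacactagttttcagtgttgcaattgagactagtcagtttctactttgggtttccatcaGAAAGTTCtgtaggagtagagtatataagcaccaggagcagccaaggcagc
Ccl17 chr8:94810203-94810452 plus strand: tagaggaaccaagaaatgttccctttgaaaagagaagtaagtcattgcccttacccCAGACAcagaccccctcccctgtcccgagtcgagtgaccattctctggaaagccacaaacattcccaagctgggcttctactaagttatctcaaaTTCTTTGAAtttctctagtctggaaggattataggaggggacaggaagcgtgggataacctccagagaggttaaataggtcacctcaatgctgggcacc
Hspa1a chr17:34972157-34972406 minus strand: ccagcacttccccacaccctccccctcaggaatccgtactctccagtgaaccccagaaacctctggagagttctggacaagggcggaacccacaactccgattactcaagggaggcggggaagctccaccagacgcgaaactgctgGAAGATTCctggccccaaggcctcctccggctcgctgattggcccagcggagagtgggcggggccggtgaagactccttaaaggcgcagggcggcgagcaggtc
Tgfbi chr13:56609336-56609585 plus strand: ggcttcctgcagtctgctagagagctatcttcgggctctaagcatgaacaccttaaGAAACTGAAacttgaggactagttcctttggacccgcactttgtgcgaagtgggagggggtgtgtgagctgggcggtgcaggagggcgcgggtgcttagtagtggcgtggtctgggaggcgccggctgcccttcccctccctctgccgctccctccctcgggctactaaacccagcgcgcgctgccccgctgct
Capitals in Il12b and Hspa1a mark the heat shock letters GAANNTTC, 51 and 104 bases before the start. In Ccl17 they mark the SMAD letters CAGACA at 194 bases and the STAT letters TTCNNNGAA at 99 bases before it, and in Tgfbi the interferon response letters GAAANNGAA at 194 bases. Matches on both strands were sought in windows from 250 bases before to 50 bases after the start, of which 12 of the 15 rises and 14 of the 15 falls had at least 1. Each of those rises had 1 window, whereas among the falls C5ar2, Ms4a7 and Adcy3 had 2 and Pde1c and Apoe had 3. The counts below are genes with a match in any window, and the percentages are shares of single windows. Genes with several windows had more chances of a match, so these figures are not directly comparable. GAANNTTC was in the windows of 3 rises and 1 fall (7.86% of 32851 windows of all genes held it), CAGACA in 3 and 6 (21.0%), TTCNNNGAA in 1 and 3 (8.30%) and GAAANNGAA in 0 and 4 (8.56%). The AP-1 letters TGANTCA were in 0 and 5 (7.81%), the C/EBP letters TTGNNNCAA in 0 and 1 (5.82%) and TTGCGCAA in 0 and 0 (0.183%). The NF-κB letters GGANTTTCC (1.25%) and the SMAD letters GTCTAGAC (0.213%) were in none of either set. None of the matches in the 4 printed stretches overlap, and a match or its absence describes only these letters in these windows.

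Most inflammatory cytokine genes were higher in cKO LPS. Of 19 proinflammatory cytokine genes tested, 15 were higher and 1 lower, with a median log2 fold change of 1.36 against -0.02 over all genes. Tnf was at 264, 189.8 and 173 CPM in cKO LPS and at 32.9, 23.5 and 30.0 CPM in WT TolLPS. Il6 was at 203, 193 and 182 CPM in cKO LPS and at 29.0, 26.7 and 18.3 CPM in WT TolLPS. Il1b was at 3177, 3519 and 3549 CPM in cKO LPS and at 1498, 1297 and 1352 CPM in WT TolLPS. The groups were apart for all 3, with log2 fold changes of 2.86 ± 0.16, 2.96 ± 0.15 and 1.30 ± 0.11, and cKO LPS also lay above each WT LPS library, whose means were 85.8, 106 and 2034 CPM. The other subunits of the IL-12 family moved the same way: Il12a, the p35 subunit, was at 46.6 ± 4.86 against 1.82 ± 0.287 CPM (4.66 ± 0.22), Il23a, the p19 subunit, at 5.24 ± 0.939 against 1.58 ± 0.620 CPM (1.73 ± 0.35), Il27, the p28 subunit, at 19.1 ± 5.36 against 2.11 ± 0.944 CPM (3.15 ± 0.30) and Ebi3, its partner, at 229.7 ± 20.5 against 89.3 ± 7.16 CPM (1.36 ± 0.11). Lta, which encodes lymphotoxin alpha, was higher by 5.28 ± 0.32 and Il1a by 0.86 ± 0.15. The lower member was Ltb, lymphotoxin beta, at 0.986 ± 0.252 against 5.61 ± 0.627 CPM (-2.48 ± 0.32). Il10 itself had few counts, at 1.26, 1.86 and 0.153 CPM in cKO LPS and at 0, 0.0961 and 0.300 CPM in WT TolLPS, with overlapping libraries. It was called (2.97 ± 0.86, adjusted p = 0.00748) and stood at 2.05 CPM in WT LPS. The Il10 call was lost without cKO LPS replicate 2 (2.41, adjusted p = 0.0542). Without WT TolLPS replicate 3 the difference was 4.19. Ifnb1 had 3 to 7 counts in each of the 6 libraries and was not tested.

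Most CC chemokine genes tested, and 6 of the CXC genes, were higher. Of 11 CC chemokines 7 were higher and 2 lower (median 0.93), and of 11 CXC chemokines 6 and 2 (median 0.34, which was -0.02 on the TPM scale). Ccl5, which attracts T cells and monocytes, was at 9202, 9319 and 9475 CPM in cKO LPS and at 844, 520.3 and 875 CPM in WT TolLPS, a difference of 3.64 ± 0.20. Its WT LPS mean was 5782 CPM. Ccl3 and Ccl4, macrophage inflammatory proteins, differed by 1.42 ± 0.11 and 1.39 ± 0.10. Among interferon-inducible ligands of CXCR3, Cxcl10 was at 515, 712 and 623 CPM in cKO LPS and at 81.0, 45.8 and 91.5 CPM in WT TolLPS. Cxcl11 was at 93.0 ± 7.66 against 4.52 ± 1.30 CPM and Cxcl9 at 5.84 ± 0.931 against 1.07 ± 0.513 CPM, and the 3 differed by 3.08 ± 0.34, 4.36 ± 0.33 and 2.43 ± 0.35. Cxcl16, a membrane-bound chemokine, was higher by 1.07 ± 0.14. Lower were the eosinophil chemokine Ccl24 (-2.16 ± 0.42), Ccl12 (-1.42 ± 0.39), Cxcl14 (-2.25 ± 0.40) and the neutrophil chemokine Cxcl3 (-0.62 ± 0.24, adjusted p = 0.0473). The Cxcl3 call was lost with RLE scaling, with all 18 libraries in the fit and without cKO LPS replicates 2 or 3, WT TolLPS replicates 1 or 2 or WT LPS replicate 3 (-0.67 to -0.43, adjusted p = 0.0566 to 0.137).

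Nearly all genes of mature migratory dendritic cells were higher in cKO LPS. Of 20 tested, 18 were higher and 1 lower, with a median of 2.83. For 18 of the 18 higher members WT LPS was nearer to cKO LPS than to WT TolLPS, against 58.9% of all higher genes. Ccr7, the receptor that guides dendritic cells to lymph nodes, was at 1133, 1277 and 1224 CPM in cKO LPS and at 51.9, 33.0 and 17.6 CPM in WT TolLPS. All cKO LPS libraries lay far above any WT TolLPS library, WT LPS was at 1249, 1062 and 1122 CPM, and the log2 fold change was 5.14 ± 0.36. Marcksl1, an actin-binding substrate of protein kinase C, was at 114 ± 9.63 against 19.5 ± 1.95 CPM (2.55 ± 0.12). The lower member was the annexin gene Anxa3 at 152 ± 7.32 against 184 ± 15.8 CPM (-0.28 ± 0.08). The Anxa3 call was lost without cKO LPS replicate 3 (-0.24, adjusted p = 0.0501). Of 15 costimulatory molecules and T-cell ligands 11 were higher and 4 lower, with a median of 2.00. Cd40, the receptor of the T-cell ligand CD40L, was at 243, 279 and 235 CPM in cKO LPS and at 8.63, 6.05 and 7.89 CPM in WT TolLPS. Cd86, a ligand of CD28, was at 142, 138 and 134 CPM in cKO LPS and at 38.4, 21.9 and 19.6 CPM in WT TolLPS. Cd80, the second ligand of CD28, was at 22.5, 29.6 and 28.5 CPM in cKO LPS and at 8.89, 7.40 and 5.99 CPM in WT TolLPS. The groups did not overlap for any of these, and the log2 fold changes were 5.06 ± 0.14, 2.36 ± 0.25 and 1.84 ± 0.18. WT LPS means were 170, 159 and 32.5 CPM for Cd40, Cd86 and Cd80. The TNF family ligands Tnfsf15 (TL1A) and Tnfsf4 (OX40L) were higher by 5.11 ± 0.15 and 3.75 ± 0.20. Besides Tnfsf14, the lower members were Slamf1 (-1.77 ± 0.29), the Notch ligand Jag1 (-1.47 ± 0.23) and Cd48 (-0.36 ± 0.11). The Cd48 call was lost without cKO LPS replicate 2 (-0.30, adjusted p = 0.0501).

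**Figure D3:**
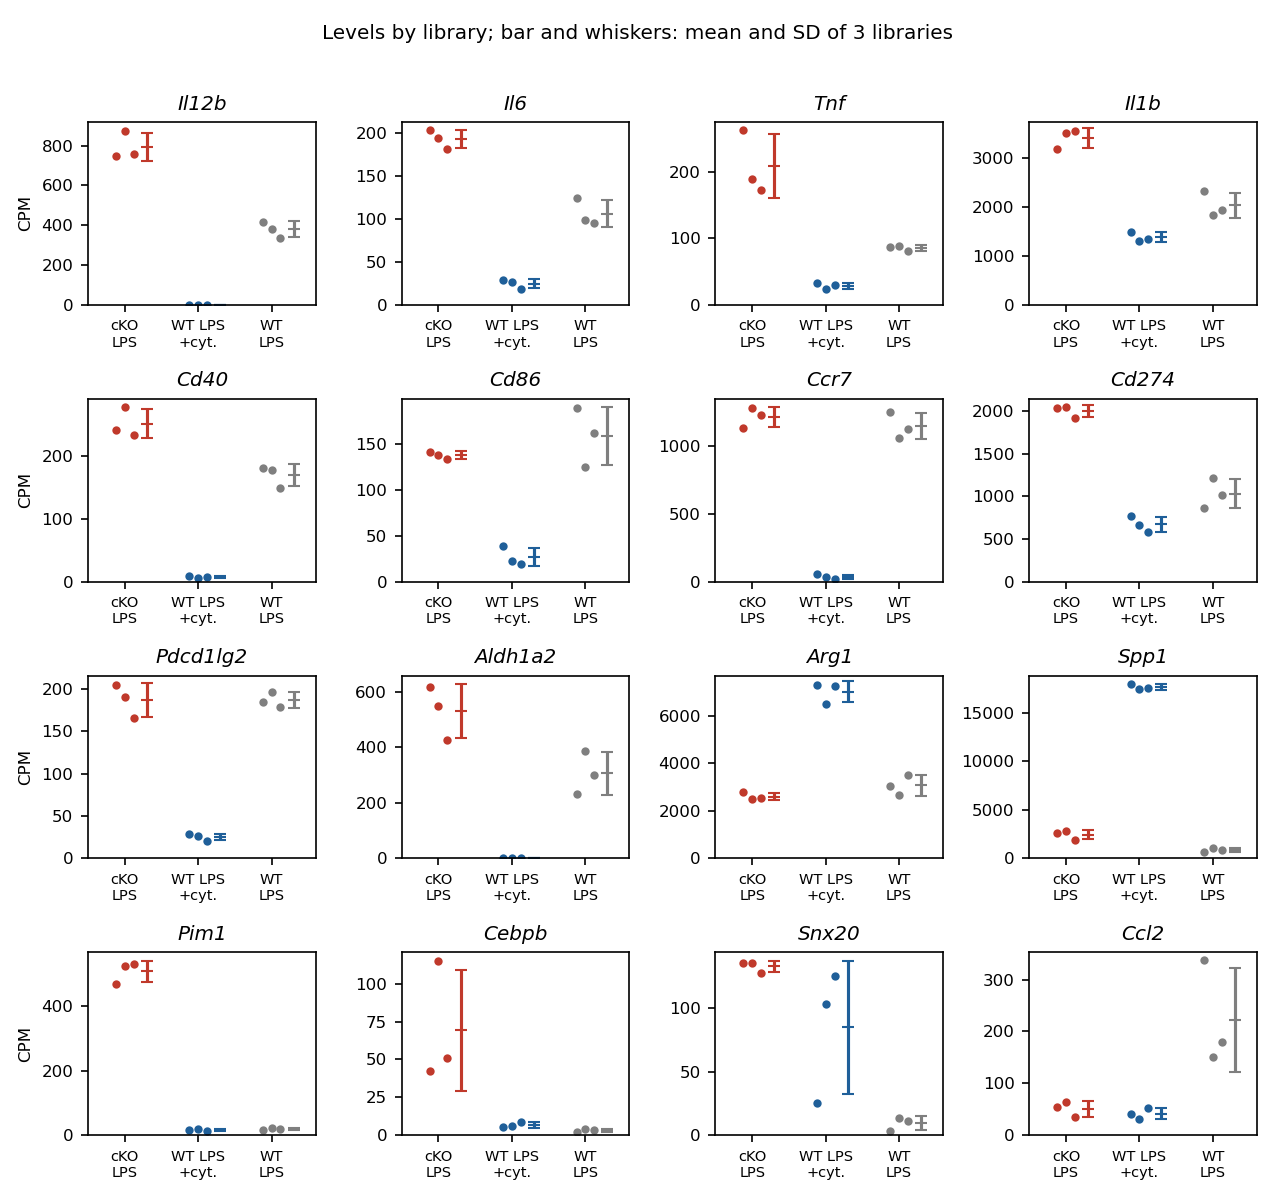
CPM of 16 genes in each library of cKO LPS (red), WT TolLPS (blue) and WT LPS (grey), with the mean and SD of 3 libraries beside the points; axes start at 0. Il12b, Cd40, Ccr7 and Aldh1a2 are high in both LPS groups without cytokines, Pim1 and Cebpb are high in cKO LPS, Spp1 and Arg1 are high in WT TolLPS, and Ccl2 is high in WT LPS.

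Genes of antigen presentation on MHC class II were mostly higher. Of 16 class II genes 14 were higher and 1 lower (12 and 2 on the TPM scale), with a median of 1.42. For 12 of the 14 higher members WT LPS was nearer to cKO LPS than to WT TolLPS. H2-Ab1, a chain of I-A, was at 2065, 2167 and 2032 CPM in cKO LPS and at 573, 477 and 448 CPM in WT TolLPS. Cd74, the invariant chain, was at 2794, 2944 and 2827 CPM in cKO LPS and at 514, 378 and 349.6 CPM in WT TolLPS. Both were higher in every cKO LPS library (2.06 ± 0.11 and 2.79 ± 0.13), as were H2-Aa (2.46 ± 0.13) and H2-Eb1 (3.00 ± 0.14). Ciita, the transactivator of class II genes, was at 40.7 ± 3.37 against 5.45 ± 1.08 CPM (2.89 ± 0.20). The lower member was March1, the ubiquitin ligase that removes class II and CD86 from the surface, at 302 ± 25.8 against 411 ± 25.6 CPM (-0.44 ± 0.09). Of 17 genes of MHC class I and the immunoproteasome, 9 were higher and 0 lower in edgeR (median 0.27; 8 and 4 on the TPM scale, median -0.05), among them Psme2 (1.32 ± 0.12), Psmb8 (0.82 ± 0.09), Psmb9 (0.77 ± 0.09) and Nlrc5, the class I transactivator (1.13 ± 0.12). The non-classical class I gene H2-T10, which has near-identical neighbours and is uncertain, was at 169, 153 and 174 CPM in cKO LPS and at 15.4, 15.9 and 19.2 CPM in WT TolLPS, above the 3 WT LPS libraries (29.3, 33.3 and 29.2 CPM) as well.

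Genes that mark the dendritic cell lineage were present at unequal levels. Itgax, which encodes the sorted marker CD11c, was at 574, 467 and 542 CPM in cKO LPS and at 258, 286 and 253 CPM in WT TolLPS, a difference of 0.99 ± 0.09 with no overlap. Its WT LPS mean was 618 CPM. Of 16 lineage genes tested 10 were higher and 4 lower, with a median of 0.92. For 10 of the 10 higher members and 3 of the 4 lower ones WT LPS was nearer to cKO LPS than to WT TolLPS. Zbtb46, a transcription factor of classical dendritic cells, was at 21.8, 23.7 and 23 CPM in cKO LPS and at 1.51, 1.83 and 0.50 CPM in WT TolLPS. Its level in WT TolLPS was low, while WT LPS was at 17.4, 18 and 20.4 CPM. Batf3, needed for cross-presenting dendritic cells, and Clec10a, a lectin of the other classical subset, differed by 3.23 ± 0.16 and 3.08 ± 0.21. Lower were Cd24a (-2.61 ± 0.12), Sirpa (-0.76 ± 0.09), the transcription factor gene Klf4 (-1.18 ± 0.17) and Sfpi1, the older symbol of Spi1 (PU.1; -0.41 ± 0.16, adjusted p = 0.0478). The Sfpi1 call was lost with RLE scaling, with all 18 libraries in the fit, with Rn45s removed and without cKO LPS replicates 1, 2 or 3, WT TolLPS replicates 2 or 3 or WT LPS replicate 3 (-0.45 to -0.28, adjusted p = 0.053 to 0.171).

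Most macrophage genes were lower. Of 19 genes of macrophage identity and efferocytosis 14 were lower and 4 higher, with a median of -0.99. Csf1r, the receptor of M-CSF, was at 833, 734 and 735 CPM in cKO LPS and at 1965, 1859 and 1902 CPM in WT TolLPS. Siglec1, a sialic acid receptor of macrophages, was at 41.6, 36.6 and 54.0 CPM in cKO LPS and at 228, 209 and 248 CPM in WT TolLPS. Both were lower in all cKO LPS libraries (-1.31 ± 0.09 and -2.37 ± 0.14), and the scavenger receptor Msr1 was lower, at -1.19 ± 0.09 (log2). The higher members were the scavenger receptor Marco, at 563 ± 114 against 89.1 ± 30.0 CPM (2.66 ± 0.26), the efferocytosis receptor Axl (1.25 ± 0.11), Cd68 (0.57 ± 0.12) and Fcgr1 (0.44 ± 0.15). The Fcgr1 call was lost with upper-quartile scaling, with all 18 libraries in the fit, on the TPM scale and without cKO LPS replicates 1 or 2 or WT TolLPS replicates 1 or 2 (0.14 to 0.45, adjusted p = 0.0514 to 0.373). Of 19 Fc and C-type lectin receptors 8 were higher and 9 lower (median 0.10; 4 and 10 on the TPM scale, median -0.24). Clec5a, an activating lectin of myeloid cells, was at 29.8, 31.4 and 24.0 CPM in cKO LPS and at 319, 309 and 339.6 CPM in WT TolLPS (-3.50 ± 0.24), the mannose receptor Mrc1 at 17.9 ± 4.80 against 45.7 ± 3.38 CPM (-1.35 ± 0.15), Fcgr4 at 40.3 ± 2.03 against 138 ± 22.5 CPM (-1.78 ± 0.14) and Clec4a2 at 56.2 ± 5.32 against 146 ± 6.86 CPM (-1.38 ± 0.10). Higher were Olr1, a receptor of oxidised lipoprotein (1.38 ± 0.12), and Ly75, which encodes DEC-205 (1.12 ± 0.13). Most granulocyte markers moved with these falls, though Retnlg was higher (2.53). S100a8 and S100a9, the calgranulin genes, were at 382 ± 210.2 against 1486 ± 227 CPM and 434 ± 270.0 against 1327 ± 139 CPM, and the neutrophil lipocalin Lcn2 at 1251 ± 322 against 2817 ± 244 CPM. The part of granulocyte markers in the macrophage and receptor differences was not tested.

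Genes called inhibitory or tolerogenic were for the most part higher in cKO LPS, not lower. Of 21 tested, 15 were higher and 4 lower, with a median of 0.81. Cd274, which encodes PD-L1, was at 2037, 2050.4 and 1925 CPM in cKO LPS and at 765, 664 and 584 CPM in WT TolLPS. Pdcd1lg2, which encodes PD-L2, was at 205, 190.1 and 165 CPM in cKO LPS and at 28.9, 25.8 and 21.0 CPM in WT TolLPS. Neither overlapped (1.58 ± 0.13 and 2.88 ± 0.12); the WT LPS mean was 1033 CPM for Cd274 and 187 CPM for Pdcd1lg2. Thbs1, which activates latent TGF-β, was higher by 1.98 ± 0.12, and Pvrl2, a ligand of TIGIT and CD226, by 1.80 ± 0.12. Lower were Havcr2 (TIM-3), at 3.51, 3.87 and 2.91 CPM in cKO LPS and at 30.1, 29.1 and 12.6 CPM in WT TolLPS, and Nt5e, the ectonucleotidase CD73, at 36.5, 36.4 and 38.3 CPM in cKO LPS and at 238, 270.4 and 256 CPM in WT TolLPS. Both were several times lower in every cKO LPS library (-2.80 ± 0.39 and -2.78 ± 0.30), and WT LPS means were 2.50 and 45.3 CPM. The other lower members were 4632428N05Rik, the older symbol of Vsir (VISTA; -0.56 ± 0.10), and the inhibitory receptor Lilrb3 (-0.43 ± 0.09).

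Enzymes of arginine, tryptophan and itaconate metabolism were split. Of 11 tested, 5 were higher and 2 lower (median 0.36). Nos2, the inducible nitric oxide synthase, was at 2476, 2251 and 2443 CPM in cKO LPS and at 696, 640.0 and 575 CPM in WT TolLPS. Arg1, arginase 1, which uses the same substrate, was at 2792, 2491 and 2527 CPM in cKO LPS and at 7303, 6521 and 7248 CPM in WT TolLPS. The 2 enzymes moved in opposite directions without overlap, Nos2 by 1.91 ± 0.12 and Arg1 by -1.43 ± 0.11, with WT LPS means of 1045 and 3075 CPM. Il4i1, a phenylalanine and tryptophan oxidase, was at 373, 469 and 424 CPM in cKO LPS and at 37.9, 24.5 and 14.4 CPM in WT TolLPS (4.04 ± 0.30), Irg1, which makes itaconate, at 2159 ± 119.6 against 1008 ± 177 CPM (1.1 ± 0.12), and Odc1, the first enzyme of polyamine synthesis, at 43.8 ± 10.5 against 23 ± 3.66 CPM (0.93 ± 0.16). Arg2 was at 145 ± 26.2 against 188 ± 22.7 CPM with overlapping libraries, and was called lower (-0.37 ± 0.14). The Arg2 call was lost with RLE scaling and without cKO LPS replicates 1 or 3, WT TolLPS replicates 1 or 2 or WT LPS replicate 2 (-0.37 to -0.29, adjusted p = 0.0521 to 0.121). Ido1 had 3 counts in the 3 cKO LPS libraries together and 0 in WT TolLPS, and was not tested.

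Most IL-10 and STAT3 targets were higher in cKO LPS, while TGF-β and SMAD targets moved in both directions. Of 22 IL-10 and STAT3 targets 17 were higher and 3 lower in cKO LPS (median 0.77). For 8 of the 17 higher members WT LPS was nearer to cKO LPS than to WT TolLPS. IL-10 was added to WT TolLPS and not to cKO LPS. Pim1, a STAT-induced serine/threonine kinase, was at 469.6, 524 and 529 CPM in cKO LPS and at 14.4, 17.5 and 14 CPM in WT TolLPS. It was far higher in all cKO LPS libraries (5.05 ± 0.13, adjusted p = 1.41e-12), and WT LPS was as low as WT TolLPS, at 15.1, 22.1 and 17.6 CPM. Cish, a feedback inhibitor of cytokine receptors, differed by 1.77 ± 0.10, Ddit4, an inhibitor of mTORC1, by 1.99 ± 0.10, the AP-1 subunit gene Junb by 1.36 ± 0.09 and Stat3 by 0.62 ± 0.08. Bcl3, an NF-κB cofactor, was higher by 0.75 ± 0.22. The Bcl3 call was lost on the TPM scale (0.40, adjusted p = 0.0947). The lower members included Il4ra, a chain of the IL-4 receptor, at 387, 349 and 382 CPM in cKO LPS and at 631, 617 and 671 CPM in WT TolLPS (-0.78 ± 0.10), and Sbno2 (-0.36 ± 0.08). Of 21 TGF-β and SMAD targets 7 were higher and 10 lower, with a median of -0.39. These counts were not far from the shares over all genes. On the TPM scale 3 were higher and 13 lower, and without cKO LPS replicate 2 the higher numbered 4. After Tgfbi the lower members included the SMAD corepressor gene Ski, at 31.5, 33.6 and 32.0 CPM in cKO LPS and at 83.0, 90.7 and 105 CPM in WT TolLPS, and the receptors Tgfbr1, at 7.44, 6.82 and 7.50 CPM in cKO LPS and at 28.2, 25.3 and 32.2 CPM in WT TolLPS, and Tgfbr2, at 72.1 ± 3.78 against 141 ± 5.42 CPM. The groups were apart for all 3 (-1.52 ± 0.11, -1.97 ± 0.17 and -0.97 ± 0.08). The higher members included the fractalkine receptor Cx3cr1 (3.01 ± 0.42), the cell cycle inhibitor gene Cdkn2b (1.28 ± 0.20) and Id2 (0.44 ± 0.12). The Id2 call was lost with all 18 libraries in the fit (0.44, adjusted p = 0.0821) and on the TPM scale (0.13, adjusted p = 0.376). Tgfb1, the ligand gene, was at 5.62, 8.83 and 6.89 CPM in cKO LPS and at 3.47, 5.28 and 5.40 CPM in WT TolLPS (0.59 ± 0.25, adjusted p = 0.0483). The Tgfb1 call was lost with upper-quartile scaling, with DESeq2, with a filter of 5 CPM, with all 18 libraries in the fit, on the TPM scale and without cKO LPS replicates 2 or 3, WT TolLPS replicates 1 or 2 or WT LPS replicate 3 (0.21 to 0.68, adjusted p = 0.0511 to 0.32).

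Of 8 PIM kinase and C/EBP genes 5 were higher and 2 lower. Cebpb, a transcription factor of emergency myelopoiesis and inflammation, was at 42.1, 115 and 50.8 CPM in cKO LPS and at 5.16, 6.05 and 8.59 CPM in WT TolLPS, a difference of 3.40 ± 0.46, with cKO LPS replicate 2 well above the other two and WT LPS at 1.78, 3.81 and 3.07 CPM. Pim2 and Pim3 were higher by 1.22 ± 0.21 and 0.74 ± 0.13, and Cebpe and Cebpg lower, at -1.43 ± 0.25 and -0.79 ± 0.16. Of 12 SOCS and feedback genes 6 were higher and 2 lower (median 0.48), with the phosphatase genes Ptpn2, at 408 ± 13.1 against 96.0 ± 13.6 CPM (2.09 ± 0.11), and Ptpn1 (0.73 ± 0.09) and with Socs2 (0.62 ± 0.08) among the higher. Lower were Ptpn6, the phosphatase SHP-1 (-0.31 ± 0.08), and Socs6 (-0.35 ± 0.11). The Socs6 call was lost without cKO LPS replicate 1 (-0.30, adjusted p = 0.0665) and without WT TolLPS replicate 1 (-0.32, adjusted p = 0.0519).

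NF-κB pathway genes were mostly higher, while genes of LPS sensing were called in both directions. Of 20 Toll-like receptors and co-receptors 7 were higher and 9 lower (median -0.13), not far from the shares over all genes. Tlr4, the LPS receptor, was at 85.2, 84.3 and 84.9 CPM in cKO LPS and at 228, 237 and 233 CPM in WT TolLPS, lower in all cKO LPS libraries (-1.46 ± 0.10), and its adaptor Tirap was lower, at -1.37 ± 0.13 (log2). Cd14, which hands LPS to TLR4, was at 1889, 1997 and 1950.3 CPM in cKO LPS and at 1098, 963 and 818 CPM in WT TolLPS, higher by 1.02 ± 0.10, as were the adaptors Ticam1 (1.04 ± 0.10) and Ticam2 (1.79 ± 0.10) of the interferon branch, Tlr1 (1.93 ± 0.16) and Ly86 (2.09 ± 0.16). The RNA sensors Tlr7 and Tlr13 were lower, at -0.99 ± 0.10 and -1.89 ± 0.16. Of 22 NF-κB subunits and inhibitors 15 were higher and 2 lower (median 0.76; 11 and 4 on the TPM scale), with Rel at 124, 111 and 114 CPM in cKO LPS and at 41.5, 40.7 and 41.1 CPM in WT TolLPS (1.5 ± 0.08), Nfkb1 at 94.8 ± 3.94 against 40.8 ± 2.96 CPM (1.22 ± 0.08), Traf1 at 283 ± 12.1 against 88.4 ± 12.2 CPM (1.68 ± 0.10) and the inhibitor Nfkbib at 221 ± 10.9 against 83.9 ± 10.3 CPM (1.40 ± 0.09). The 2 lower members, the kinase scaffold gene Ikbkg (-0.24 ± 0.08) and Traf3 (-0.28 ± 0.11), differed little. The Ikbkg call was lost with RLE scaling (-0.19, adjusted p = 0.0537), without cKO LPS replicate 2 (-0.21, adjusted p = 0.079) and without WT TolLPS replicate 1 (-0.22, adjusted p = 0.0576). The Traf3 call was lost with RLE scaling, with DESeq2, with all 18 libraries in the fit and without cKO LPS replicate 3 or WT TolLPS replicates 1 or 2 (-0.28 to -0.18, adjusted p = 0.0709 to 0.188). Of 38 type I interferon-stimulated genes 33 were higher and 1 lower (30 and 2 on the TPM scale), with a median of 0.88. For 30 of the 33 higher members WT LPS was nearer to cKO LPS than to WT TolLPS. Isg15, a ubiquitin-like antiviral protein, was at 504, 540.2 and 527 CPM in cKO LPS and at 133, 107 and 160.4 CPM in WT TolLPS, the antiviral GTPases Mx1 and Mx2 at 448 ± 32.0 against 69.3 ± 20.6 CPM and 189 ± 3.93 against 39.7 ± 7.44 CPM, and the guanylate-binding gene Gbp2 at 1335 ± 30.7 against 203 ± 50.9 CPM. These 4 differed by 1.97 ± 0.13, 2.69 ± 0.17, 2.25 ± 0.12 and 2.72 ± 0.19. The lower member was Oas2 (-0.39 ± 0.13). The Oas2 call was lost with all 18 libraries in the fit and without cKO LPS replicates 1 or 3 or WT TolLPS replicate 3 (-0.39 to -0.27, adjusted p = 0.0503 to 0.0989).

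Genes of lipid metabolism changed in both directions. Of 15 genes of cholesterol efflux and liver X receptor targets 8 were lower and 4 higher (median -0.61). Abca1, the main cholesterol exporter of macrophages, was at 104, 88.6 and 80.2 CPM in cKO LPS and at 302, 288 and 270.1 CPM in WT TolLPS (-1.65 ± 0.12), its partner Abcg1 at 368 ± 14.2 against 637 ± 48.0 CPM (-0.79 ± 0.10), the phospholipid remodelling enzyme Lpcat3 at 43.9 ± 2.96 against 129 ± 13.2 CPM (-1.56 ± 0.10) and Mylip, a ligase that degrades the LDL receptor, at 8.79 ± 1.21 against 21.2 ± 1.69 CPM (-1.27 ± 0.15). None of these overlapped. Cyp27a1, a sterol hydroxylase of mitochondria, was higher at 4.60 ± 0.748 against 0.685 ± 0.257 CPM (2.70 ± 0.34), as were the lipid transfer protein gene Pltp (1.13 ± 0.15) and the lysosomal cholesterol carrier Npc2 (0.80 ± 0.11). Of 19 cholesterol synthesis and uptake genes 4 were higher, 7 lower and 8 not called (median -0.16), not far from the shares over all genes. On the TPM scale they numbered 3 and 12. The late enzymes Dhcr7 (4.84 ± 1.65 against 15 ± 0.906 CPM) and Lss (13.7 ± 2.33 against 26.3 ± 2.77 CPM) were lower, at -1.62 ± 0.26 (log2) and -0.94 ± 0.14 (log2). Insig1, the feedback retainer of SREBP (0.90 ± 0.13), Idi1 (0.78 ± 0.18) and Mvd (0.57 ± 0.10) were among the higher. Of 13 fatty acid synthesis and acetyl-CoA genes 4 were higher and 6 lower, not far from the shares over all genes. Acss1, the mitochondrial acetyl-CoA synthetase, was at 110.0, 98.4 and 100.1 CPM in cKO LPS and at 2.93, 3.17 and 2.00 CPM in WT TolLPS (5.24 ± 0.15), and Fasn, the fatty acid synthase, at 0.843, 2.01 and 0.765 CPM in cKO LPS and at 7.91, 9.90 and 8.39 CPM in WT TolLPS (-2.85 ± 0.32). Elovl1 and Fads1, which lengthen and desaturate fatty acids, were lower, at -0.92 ± 0.09 and -0.99 ± 0.13.

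Lists of energy metabolism genes had medians near 0. Of 25 glycolysis genes and HIF targets 11 were higher and 3 lower (median 0.18), but 6 and 7 on the TPM scale (median -0.14). Slc2a1, the glucose transporter GLUT1, was at 1074, 913 and 1054 CPM in cKO LPS and at 385, 359 and 351 CPM in WT TolLPS (1.47 ± 0.12), Vegfa, the vascular growth factor, at 32.0 ± 2.50 against 8.78 ± 1.18 CPM (1.86 ± 0.16), P4ha1, a collagen hydroxylase, at 914 ± 81.2 against 423 ± 22.1 CPM (1.11 ± 0.10) and Ankrd37 at 208 ± 16.6 against 69.6 ± 2.05 CPM (1.58 ± 0.08). For Slc2a1 and Vegfa the WT LPS means of 350.4 and 8.39 CPM were close to WT TolLPS. Lower were Pkm, pyruvate kinase (-0.65 ± 0.12), Hif1a (-0.44 ± 0.09) and Pdk1 (-0.80 ± 0.24). The Pdk1 call was lost without cKO LPS replicate 2 (-0.71, adjusted p = 0.0553) and without WT TolLPS replicate 3 (-0.75, adjusted p = 0.0539). Of 32 TCA-cycle and oxidative-phosphorylation genes 18 were higher and 5 lower (median 0.23), but 6 and 9 on the TPM scale (median -0.09), and 0 of them passed the 2-fold test in edgeR. Cox5a (0.94 ± 0.10), Ndufs3 (0.67 ± 0.10), Ogdh (0.58 ± 0.08) and Uqcrc2 (0.51 ± 0.08) were among the higher and Mdh1 (-0.46 ± 0.08) and Ndufs1 (-0.36 ± 0.08) among the lower.

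Most cytosolic chaperones were higher. Of 25 tested, 18 were higher and 3 lower (16 and 7 on the TPM scale), with a median of 0.83. Dnaja1, an HSP40 cochaperone, was at 506, 564 and 539 CPM in cKO LPS and at 127, 126 and 125 CPM in WT TolLPS. Hsph1, an HSP110 exchange factor, was at 220.3, 250.3 and 257 CPM in cKO LPS and at 53.6, 55.4 and 52.3 CPM in WT TolLPS. Both were higher in cKO LPS without overlap (2.09 ± 0.10 and 2.17 ± 0.12), Dnajb4 was higher by 2.38 ± 0.12 and Hsp90aa1 by 1.29 ± 0.08. Hsf1, the heat shock transcription factor gene, was lower, at 7.21 ± 0.988 against 14.1 ± 0.858 CPM (-0.97 ± 0.16), and so were Dnaja2 (-0.22 ± 0.07) and Hspa4 (-0.21 ± 0.08). The Dnaja2 call was lost with RLE scaling, with no count filter and without cKO LPS replicates 1 or 3 (-0.23 to -0.17, adjusted p = 0.051 to 0.0744). The Hspa4 call was lost with RLE scaling, with no count filter, with all 18 libraries in the fit and without cKO LPS replicates 2 or 3 or WT TolLPS replicates 1 or 3 (-0.22 to -0.16, adjusted p = 0.0532 to 0.138). Of 24 genes of endoplasmic reticulum chaperones and stress 13 were higher and 4 lower (median 0.42), but 9 and 9 on the TPM scale (median 0.09). Hspa5, the HSP70 of the endoplasmic reticulum, was at 1249.9, 1301 and 1097 CPM in cKO LPS and at 592, 535 and 613 CPM in WT TolLPS (1.07 ± 0.11), with Creld2 (1.62 ± 0.11), Sdf2l1 (0.96 ± 0.10) and the translocon gene Sec61b (0.98 ± 0.09) also higher. Xbp1, a stress transcription factor, and Dnajb9, its target, were lower, at -0.53 ± 0.08 and -0.74 ± 0.12, as were the degradation genes Derl1 (-0.27 ± 0.08) and Sel1l (-0.22 ± 0.08). The Derl1 call was lost without cKO LPS replicate 3 (-0.23, adjusted p = 0.0509). The Sel1l call was lost with RLE scaling, with no count filter and without cKO LPS replicates 2 or 3 or WT TolLPS replicate 3 (-0.23 to -0.17, adjusted p = 0.0632 to 0.0881).

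Of 29 genes of ATF4 and the integrated stress response 10 were higher and 12 lower (median -0.11; 6 and 17 on the TPM scale). The counts of 10 and 12 were not far from the shares over all genes. Atf3 was at 1766, 1666 and 1891 CPM in cKO LPS and at 260.3, 229 and 229 CPM in WT TolLPS (2.89 ± 0.10), and Nupr1 at 102 ± 6.47 against 35.4 ± 2.73 CPM (1.52 ± 0.16) and Mthfd2, an enzyme of one-carbon metabolism, at 119 ± 2.14 against 63.4 ± 1.23 CPM (0.91 ± 0.07) were higher too. Asns, asparagine synthetase, was at 4.63, 4.03 and 2.6 CPM in cKO LPS and at 22.1, 21.4 and 25.2 CPM in WT TolLPS (-2.6 ± 0.24), and Phgdh, the first enzyme of serine synthesis (-1.18 ± 0.18), Gadd45a (-1.62 ± 0.21) and Nars, an asparaginyl-tRNA synthetase (-0.57 ± 0.10), were lower too. Of 20 genes of NRF2, haem and metallothioneins 12 were higher and 3 lower (median 0.43), but 6 and 7 on the TPM scale (median 0.11). The peroxiredoxin Prdx1 (1.06 ± 0.12), thioredoxin Txn1 (0.91 ± 0.12), biliverdin reductase Blvrb (0.83 ± 0.09) and haem oxygenase Hmox1, at 4465 ± 238 against 2558 ± 212 CPM (0.80 ± 0.10), were higher. The metallothionein Mt2 (-0.56 ± 0.11) and the iron exporter Slc40a1 (-1.51 ± 0.40) were lower. Of the 12 genes of BAG6 and tail-anchored protein insertion, Bag6 included, 1 was higher and 6 lower (median -0.29; 0 and 8 on the TPM scale). Wrb, a receptor subunit of that insertion, was at 3.51, 3.25 and 2.14 CPM in cKO LPS and at 14.2, 15.8 and 13.2 CPM in WT TolLPS (-2.27 ± 0.20), and Sgta, a cochaperone that works with BAG6, at 120.0 ± 2.34 against 145 ± 11.3 CPM (-0.27 ± 0.08). The higher member was Rnf126, the ubiquitin ligase recruited by BAG6, at 11.1, 9.29 and 9.64 CPM in cKO LPS and at 5.16, 7.49 and 6.09 CPM in WT TolLPS (0.68 ± 0.23, adjusted p = 0.0164). The Rnf126 call was lost on the TPM scale (0.34, adjusted p = 0.198), without cKO LPS replicate 1 (0.60, adjusted p = 0.0682) and without WT TolLPS replicate 1 (0.56, adjusted p = 0.0725).

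Of 18 glucocorticoid receptor targets 10 were higher and 6 lower (median 0.82). The clock gene Per1 was at 298, 321 and 316 CPM in cKO LPS and at 68.7, 64.8 and 64.7 CPM in WT TolLPS (2.23 ± 0.10), Errfi1, an inhibitor of EGF receptor signalling, at 295 ± 28.4 against 56.8 ± 5.02 CPM (2.37 ± 0.12), and Tsc22d3, which encodes GILZ, at 167 ± 7.37 against 89.9 ± 10.4 CPM (0.89 ± 0.11). Sgk1, a kinase of ion transport, was at 203, 281 and 215 CPM in cKO LPS and at 1358, 1309 and 1199.7 CPM in WT TolLPS, lower, at -2.47 ± 0.17 (log2) with no overlap, and Anxa1 and Mt1 were lower at -0.57 ± 0.08 and -0.81 ± 0.11. Of 26 immediate early genes and AP-1 subunits 14 were higher and 4 lower (median 0.58). The orphan nuclear receptor genes Nr4a2 and Nr4a3 were at 27.3 ± 1.67 against 1.74 ± 0.659 CPM and 21.6 ± 3.29 against 1.37 ± 0.590 CPM (3.96 ± 0.21 and 3.95 ± 0.25), while Ier2 (-2.02 ± 0.14), Egr1 (-1.16 ± 0.20) and Fosl2 (-0.73 ± 0.10) were lower. Of 9 MAP kinase phosphatases 5 were higher and 1 lower: Dusp14 was at 24.9, 17.8 and 22 CPM in cKO LPS and at 0.267, 1.06 and 0.50 CPM in WT TolLPS (5.13 ± 0.29, and 5.78 without WT TolLPS replicate 2), Dusp5, Dusp2 and Dusp4 differed by 1.78 ± 0.20, 3.90 ± 0.51 and 2.53 ± 0.38, and Dusp6, which acts on ERK, was lower at 25.1, 26.2 and 17.3 CPM in cKO LPS and at 76.5, 87.3 and 87.3 CPM in WT TolLPS (-1.87 ± 0.18). Of 20 p53 targets 13 were higher and 2 lower (median 0.51; 7 and 6 on the TPM scale, median 0.17), with Gadd45b, at 481 ± 37.3 against 123 ± 28.3 CPM, higher by 1.96 ± 0.13, the cell cycle inhibitor Cdkn1a, at 2240.0 ± 25.1 against 919.5 ± 13.3 CPM, by 1.28 ± 0.08, and the desmosomal gene Perp lower, at -2.51 ± 0.19 (log2). Of 24 cell cycle genes 17 were higher and 1 lower (median 0.78): Aurkb, at 39.0 ± 2.47 against 12.3 ± 2.70 CPM, Ccne2, Cdk1 and Tyms were higher by 1.65 ± 0.14, 1.40 ± 0.14, 1.20 ± 0.13 and 1.15 ± 0.09, and E2f1 was lower (-0.55 ± 0.11).

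Matrix and eicosanoid genes were split. Of 22 matrix remodelling genes 7 were higher and 5 lower (median 0.20, and -0.02 on the TPM scale). These counts were not far from the shares over all genes. Spp1, osteopontin, a secreted matrix and cytokine-like protein, was at 2574, 2780.0 and 1884 CPM in cKO LPS and at 18016, 17448 and 17552 CPM in WT TolLPS. All cKO LPS libraries were far below WT TolLPS (-2.87 ± 0.17) and above WT LPS (647, 1019.6 and 878 CPM). Ecm1 and the metalloprotease Mmp19 were lower at -1.75 ± 0.12 and -1.53 ± 0.09, and Serpinb2, an inhibitor of plasminogen activators, at -2.77 ± 0.40. Mmp25 (3.80 ± 0.19), Mmp2 (1.60 ± 0.20) and the plasminogen activator Plau (1.55 ± 0.19) were higher. Of 16 prostaglandin and leukotriene genes 4 were higher and 8 lower (median -0.38). Ptgs2, the inducible cyclooxygenase COX-2, was at 1542, 1563 and 1521 CPM in cKO LPS and at 147, 98.5 and 97.8 CPM in WT TolLPS (3.75 ± 0.25), and the prostacyclin receptor Ptgir at 83.4 ± 0.449 against 21.6 ± 0.587 CPM (1.95 ± 0.19). Ptger2, a receptor of prostaglandin E2, was at 3.93, 2.79 and 1.99 CPM in cKO LPS and at 39.3, 42.4 and 44.8 CPM in WT TolLPS (-3.84 ± 0.19), and the leukotriene genes Alox5 and Alox5ap were at 9.99 ± 1.83 against 60.8 ± 4.61 CPM and 251 ± 10.8 against 502 ± 16 CPM (-2.61 ± 0.24 and -1.0 ± 0.08).

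**Figure D4:**
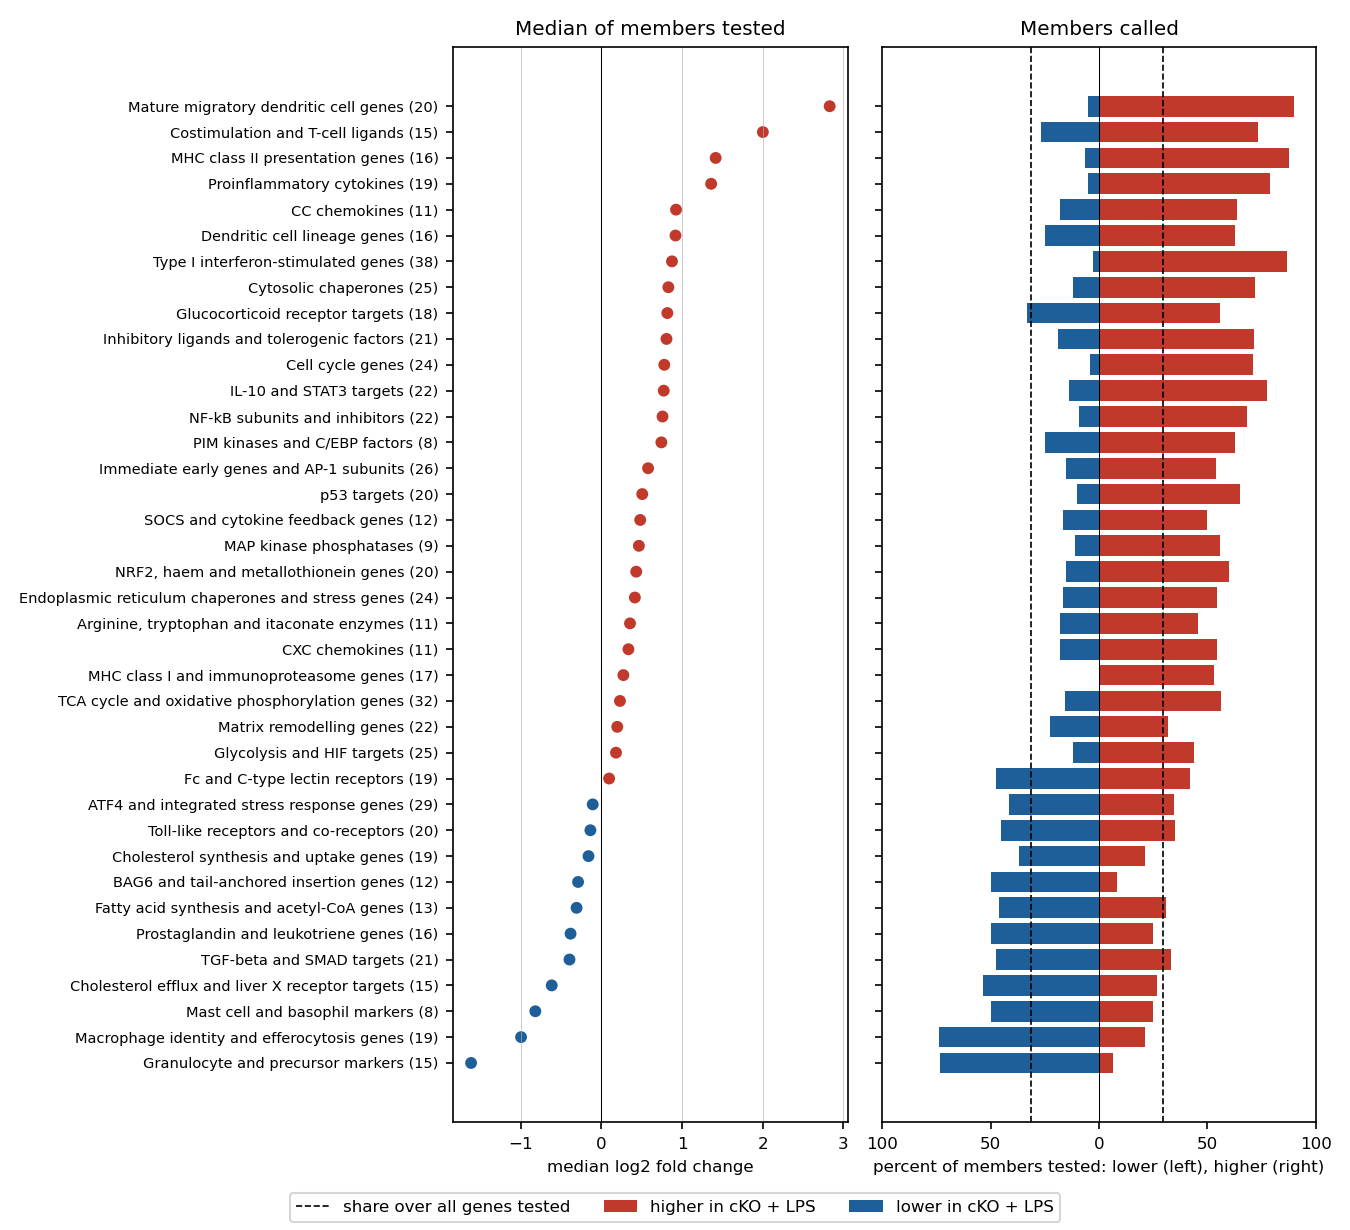
Left: median log2 fold change (cKO LPS minus WT TolLPS) of the tested members of each gene list with at least 8 of them, with the number in brackets. Right: percent of tested members higher (red) and lower (blue) in cKO LPS; dashed lines mark the shares over all genes tested, 29.7% higher and 31.3% lower, and mature migratory dendritic cell genes stand at the top and granulocyte markers at the bottom.

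The genes with the smallest p-values were not always those with the largest fold changes. Among rises, Got1, the cytosolic aspartate aminotransferase, was at 168, 157 and 161 CPM in cKO LPS and at 20.7, 17.7 and 18.5 CPM in WT TolLPS, within narrow ranges and apart (3.09 ± 0.09, adjusted p = 2.71e-12). Among falls, Prnp, the prion protein gene, was at 9.13, 7.13 and 8.42 CPM in cKO LPS and at 114, 98.9 and 86.8 CPM in WT TolLPS and Cd93, a receptor of phagocytic and endothelial cells, at 16.3, 23.1 and 19.1 CPM in cKO LPS and at 172, 195 and 169 CPM in WT TolLPS. They differed by -3.60 ± 0.13 and -3.20 ± 0.12, and WT LPS means of 9.47 and 14.5 CPM were close to cKO LPS. The small GTPase gene Arl11, the guanine deaminase gene Gda, the lysophospholipase gene Pnpla7, Tbc1d9 and Klhdc4 were lower, at -2.43 ± 0.09 (log2), -2.40 ± 0.09 (log2), -2.75 ± 0.11 (log2), -2.69 ± 0.11 (log2) and -2.47 ± 0.11 (log2).

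Some readouts had no call between the groups at adjusted p under 0.05 in edgeR although both lay apart from WT LPS. Ccl2, a monocyte chemokine, was at 53.2, 64.3 and 34.6 CPM in cKO LPS and at 40.4, 30.5 and 52.2 CPM in WT TolLPS, with overlapping libraries, a difference of 0.31 ± 0.41 and a 95% interval of -0.67 to 1.28. WT LPS was at 338, 151 and 179 CPM, and against that shared reference cKO LPS was at -2.14 ± 0.40 and WT TolLPS at -2.44 ± 0.40. Ccl7, a related chemokine, had few counts and an interval of -1.58 to 1.99, with -2.67 ± 0.63 and -2.88 ± 0.60 against WT LPS. Snx20, a sorting nexin, was at 136, 136 and 128 CPM in cKO LPS and at 25.5, 103 and 126 CPM in WT TolLPS. WT TolLPS replicate 1 lay far below the other two, the difference was 0.65 ± 0.60 with an interval of -0.81 to 2.11, and both groups were above WT LPS (3.12, 13.6 and 11.4 CPM; 3.83 ± 0.74 and 3.17 ± 0.73). These intervals reach beyond 2-fold, so the genes are not shown to be alike. Ccl2 was called with no count filter (0.30, adjusted p = 0.0221). Snx20 was called with no count filter (0.64, adjusted p = 5.53e-09). That setting also called the Y gene Eif2s3y (-0.79, adjusted p = 5.64e-12, against 0.489 in the main edgeR fit). Only cKO LPS replicate 1 had the female pattern, so p-values under that setting may not measure the spread among libraries. The same limit holds for Ccl2 here and Hmgcs1 below. Ccl7 changed sign, to -0.13 and -0.23, without cKO LPS replicate 2 and without WT TolLPS replicate 2.

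Narrower intervals were found for 4 other readouts. Atf4, the stress transcription factor, was at 249.98, 243 and 251 CPM in cKO LPS and at 273, 267 and 250.3 CPM in WT TolLPS (-0.09 ± 0.09, interval -0.29 to 0.11), above WT LPS in both groups (0.48 ± 0.09 and 0.57 ± 0.09). Acly, which makes cytosolic acetyl-CoA from citrate, was at 414, 341 and 403 CPM in cKO LPS and at 318, 312 and 360.5 CPM in WT TolLPS (0.23 ± 0.13, interval -0.06 to 0.51), below WT LPS in both (-0.63 ± 0.13 and -0.86 ± 0.13). Socs3, a STAT3-induced feedback inhibitor, was at 812, 752 and 797 CPM in cKO LPS and at 754, 674 and 700.3 CPM in WT TolLPS (0.15 ± 0.14, interval -0.15 to 0.45), and Skil, a SMAD target and corepressor, at 145, 126 and 135 CPM in cKO LPS and at 160.1, 149.8 and 151 CPM in WT TolLPS (-0.18 ± 0.09, interval -0.38 to 0.01). Smad7, the inhibitory SMAD, was at 6.78 ± 1.41 against 8.54 ± 1.26 CPM (-0.34 ± 0.22), Hmgcs1, an early enzyme of cholesterol synthesis, at 64.2 ± 5.71 against 91.1 ± 27.8 CPM (-0.51 ± 0.28) and Cyp11a1, which starts steroid hormone synthesis, at 3.44 ± 1.97 against 4.02 ± 1.37 CPM (-0.25 ± 0.50), with intervals of -0.80 to 0.13, -1.15 to 0.14 and -1.35 to 0.86. Cyp11a1 was at 0.09 without cKO LPS replicate 1. Atf4 was called on the TPM scale (-0.41, adjusted p = 0.00902). Acly was called with only the 6 libraries compared in the fit (0.23, adjusted p = 0.0252) and without WT LPS replicate 2 (0.23, adjusted p = 0.0358). The Skil call was gained with upper-quartile scaling, with only the 6 libraries compared in the fit, on the TPM scale and without WT LPS replicate 1 (-0.49 to -0.18, adjusted p = 0.00284 to 0.0465). Smad7 was called on the TPM scale (-0.46, adjusted p = 0.016). Hmgcs1 was called with no count filter (-0.52, adjusted p = 6.88e-06) and on the TPM scale (-0.77, adjusted p = 0.00773). Over all genes, 3091 (27.5%) had a 95% interval within 1.5-fold in either direction, 720 of them called and 2371 not, and 2011 genes not called had intervals reaching beyond 1.5-fold. At this replication, a difference not called therefore does not by itself show equal levels.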

How the data were processed

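The 18 libraries hold total RNA of sorted CD11c-high dendritic cells, and their titles give group and replicate number. The authors deposited RSEM's expected counts and TPM for each gene (units per the file headers), on mm10 after bcl2fastq, per the submitters' processing notes. Versions and strandedness are not given in the sources used here, and reads of overlapping or antisense genes may be mixed. Expected counts were rounded, filtered with filterByExpr over the 9 LPS libraries (11248 of 23420 genes kept) and scaled with TMM factors over all 18 libraries. edgeR 4.0.16 under R 4.3.3 fitted the 3 LPS groups together without covariates, with the robust quasi-likelihood F-test and Benjamini-Hochberg adjustment over all genes tested. The common biological coefficient of variation was 0.11. CPM values use the scaled library sizes. The 2-fold test was glmTreat, and intervals are 95%. The SE of a log2 fold change is its absolute value divided by the square root of the F statistic. Intervals of log2 fold changes were built from that SE. The counting interval of the Saa1 ratio covers counting error alone.

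Named genes were Bag6, the 15 largest rises and 15 largest falls (called, mean log2 CPM of at least 2, no overlap of libraries), for each list the 4 called members with the smallest p in each direction (or its 3 smallest p where none was called), 57 readout genes, and the 10 smallest p in each direction. Some genes that this rule names are not reported here. The granulocyte markers S100a8, S100a9 and Lcn2 were added after their values were seen. Gene names in 41 lists were matched to the files, 5 through RefSeq synonyms, and 2 were not found. Lists share members. The members and lists were chosen with earlier results of these data known. Promoter sequences come from RefSeq, GRCm38.p6. Alternatives were upper-quartile and RLE factors, other count filters, DESeq2 1.42.0, other sets of libraries in the fit, a replicate block, limma 3.58.1 on TPM logged with a pseudocount of 1 or 0.1, glmTreat at 2-fold, removal of Rn45s and each library left out. The TPM scale means log2(TPM + 1). On simulated counts over 11085 genes the procedure recovered 55.2% of 67 genes with a 1.5-fold change, 75.0% of 64 at 2-fold and 92.3% of 65 at 4-fold, with 13 false among 158 calls, and gave 0 calls in a pair of groups simulated unchanged. The simulation changed far fewer genes than were called in the data and built in no wide shift between groups. Its rates may therefore not carry over to this comparison.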

Additional observations from a re-analysis of the deposited data

How the results depend on the processing

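The 3344 genes higher and 3522 lower stayed within 1.5 times of these counts under the other scalings, filters, tools and sets of libraries, with 3 exceptions. On log2(TPM + 1) the counts were 2027 and 5387, on log2(TPM + 0.1) 2030 and 5396, and tested against 2-fold 777 and 713. RLE scaling gave 3595 and 3253. Leaving out 1 library gave 3076 to 3523 higher and 3131 to 3705 lower. Same-numbered libraries of cKO LPS and WT TolLPS did not deviate together (correlations of 0.06, -0.01 and 0.03 over 9000 genes), so the numbers were not used to pair these groups. Between cKO LPS and WT LPS the correlations were 0.21, 0.17 and -0.03, and only replicate 1 of each knockout group, LPS and medium, carried female-pattern expression. The replicate block gave 3315 and 3488. Of the named genes' values under the alternatives 13 changed sign, 232 lost and 20 gained a call. Many of the lost calls came from the test against 2-fold, which asks a stricter question. That setting is left out where lost calls are listed for single genes above. On log2(TPM + 1) and log2(TPM + 0.1) the signs changed for Nr1h2 (-0.0622 and -0.0630), Ccl2 (-0.0343 and -0.0349), Socs3 (-0.17 and -0.17) and Acly (-0.10 and -0.10). Ccl7 was at -0.00912 on log2(TPM + 1), -0.13 without cKO LPS replicate 2 and -0.23 without WT TolLPS replicate 2, and leaving out 1 library gave at most 0.612. Over the libraries left out, Ddx3y ranged from -0.962 to 0.0546 and Cyp11a1 from -0.768 to 0.0942, both highest without cKO LPS replicate 1. The cause was not tested. Of 82 list counts, 61 stayed within 1.5 times on log2(TPM + 1), where 7 list medians changed sign, 62 on log2(TPM + 0.1), where 5 did, and 16 against 2-fold. Under the other alternatives 75 to 82 did, with at most 2 medians changing sign, and without cKO LPS replicate 1 the number was 76. Depth limits genes of few counts, such as Saa1 (1 count over cKO LPS), Il10 (4 over WT TolLPS) and Ccl7 (41 over cKO LPS).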
